A study of Homo sapiens with 9 samples.

Results

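ABL1 and ABL2 (also called ARG) encode the ABL family of non-receptor tyrosine kinases. CRKL encodes an adaptor that ABL kinases phosphorylate, and ABI1 and ABI2 encode ABL-interactor proteins. Their probe sets were read from a table of 54675 probe sets, as every probe set whose platform annotation gave exactly 1 gene symbol, equal to 1 of these 5 genes. The rule found 4 of the 5 genes, among 19775 with such a symbol, on 9 probe sets, of which ABL1 had 1, ABL2 had 3, CRKL had 2 and ABI1 had 3. ABI2 had 0 under this rule and was not analysed here. The genes were chosen with results of these data known: ABL1 was selected on its signals, which were lower after miR-376a*G than in both other groups, and the other genes for their relation to it. The values of ABL1 are therefore given as a description, without a test.

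Expression was measured with 1 Affymetrix array per sample in U87 cells, an established human glioma line. The groups were cells transfected with miR-376a*A, cells transfected with miR-376a*G and cells transfected with a control miRNA, named miR-control, with 3 biological replicates each. In all 3 groups 100000 cells received 50 nM of a miRNA duplex with the lipid reagent Lipofectamine RNAiMAX and were harvested after 24 h. The labels do not say which cultures or days the replicates came from. The p-values set group differences against the spread between these samples, and whether that spread covers independent cultures is not known. The model is transient overexpression in 1 cell line.

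ABL kinases are held inactive by contacts of their own SH3 and SH2 domains with the kinase domain, and are activated by growth factor receptors and SRC family kinases. They are known for moving the actin cytoskeleton in adhesion, migration and invasion, and ABL1 is the kinase of the BCR-ABL fusion in leukaemia. CRKL couples phosphotyrosine scaffolds at adhesions to guanine nucleotide exchange factors. ABI proteins join ABL kinases to the WAVE complex, which turns on branched actin assembly below the RAC GTPase.

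The transfected miRNA is shown first, since the 2 forms differ by a base in it. In published work the A form carries the genomic base while in the G form a seed base, in the stretch that pairs with target transcripts, is changed as by A-to-I editing. The RefSeq sequence (GRCh38.p14) of the 5′ arm of MIR376A1, today called miR-376a-5p, lies at chr14:101040788-101040809 on the plus strand and has the genomic base. Its seed, bases 2 to 8, is in capitals in the first line, and the whole arm is in capitals in the hairpin (chr14:101040782-101040849, plus strand) on the second.
hsa-miR-376a-5p: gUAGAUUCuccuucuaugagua
MIR376A1 hairpin: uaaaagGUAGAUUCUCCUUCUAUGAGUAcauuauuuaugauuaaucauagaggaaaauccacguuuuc
The reverse complement of this seed is GAAUCUA. The sequences of the transfected duplexes and the transcripts' target sites were not used here.

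ABL1 stood apart with the edited form. Its probe set 202123_s_at had signals of 661.4, 637.2 and 630.4 with miR-376a*A, 164.1, 153.6 and 165.8 with miR-376a*G and 726.3, 635.2 and 600.1 in the control (replicates 1, 2 and 3). The 3 miR-376a*G arrays lay far below the other 6, whose ranges overlapped. Mean signals were 643.0 ± 16.3 with miR-376a*A, 161.2 ± 6.61 with miR-376a*G and 653.9 ± 65.2 in the control (SD, n = 3 each), so that with miR-376a*G the mean signal was 24.6% of the control mean. On the log2(signal + 16) scale, used for all differences and folds here and smaller than the true change for dim probe sets, the ABL1 difference of miR-376a*G from the control was -1.92 ± 0.077 (SE), or 3.77-fold lower. This was the lowest value but for 6 among 32768 probe sets, rank 7. As ABL1 was selected on these signals, its ranks, errors and intervals are a description only. Between the forms the difference was 1.90 ± 0.077 (SE), 3.72-fold higher with miR-376a*A, and the 7th highest. With miR-376a*A against the control it was -0.02 ± 0.077 (SE, 95% interval -0.19 to 0.15), and it became 0.06 without control replicate 1. As these are bulk samples scaled to a common mean, less ABL1 RNA in every cell and fewer cells with it cannot be told apart, and a shift of all transcripts together would not be seen. The value rests on 1 probe set, whose suffix _s_at marks probes shared by several transcripts in the maker's naming.

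ABL2, the other kinase of the family, fell with the unedited form. Its probe set 231907_at had signals of 304.9, 271.7 and 234.0 with miR-376a*A, 427.5, 412.3 and 437.8 with miR-376a*G and 459.0, 389.0 and 377.2 in the control. The probe set 226893_at had 160.2, 146.6 and 144.6 with miR-376a*A, 277.8, 281.8 and 284.1 with miR-376a*G and 289.1, 237.7 and 206.1 in the control. On both probe sets each miR-376a*A array lay below each of the other 6 arrays, while miR-376a*G and control arrays overlapped. Against the control, ABL2 fell with miR-376a*A by 0.57 ± 0.097 (SE) on 231907_at (1.49-fold, adjusted p = 0.00117) and by 0.63 ± 0.101 (SE) on 226893_at (1.55-fold, adjusted p = 0.000726). These p-values come from limma's moderated test over all 32768 probe sets above a brightness filter, with Benjamini-Hochberg adjustment, two-sided, and a probe set passed under 0.05.

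With miR-376a*G the ABL2 differences from the control were 0.06 ± 0.097 (SE, 95% interval -0.15 to 0.27) and 0.20 ± 0.101 (SE, 95% interval -0.01 to 0.42), which did not pass (adjusted p = 0.684 and 0.163). Without control replicate 1, the brightest control array on both probe sets, 226893_at passed as higher with miR-376a*G, at 0.32 (adjusted p = 0.006). Between the forms ABL2 was lower with miR-376a*A, at -0.63 ± 0.097 (SE, adjusted p = 0.000555) on 231907_at and -0.84 ± 0.101 (SE, adjusted p = 8.10e-05) on 226893_at. These calls and those of miR-376a*A against the control held in every alternative run. ABL2 thus had its lowest level with miR-376a*A, and ABL1 its lowest with miR-376a*G. The dim probe set 206411_s_at had 20.0, 23.7 and 22.5 with miR-376a*A, 31.1, 24.3 and 28.2 with miR-376a*G and 26.3, 24.5 and 28.0 in the control. It gave -0.15 ± 0.096 (SE) for miR-376a*A against the control and -0.20 ± 0.096 (SE) between the forms, and neither passed (adjusted p = 0.295 and 0.169).

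**Figure D1:**
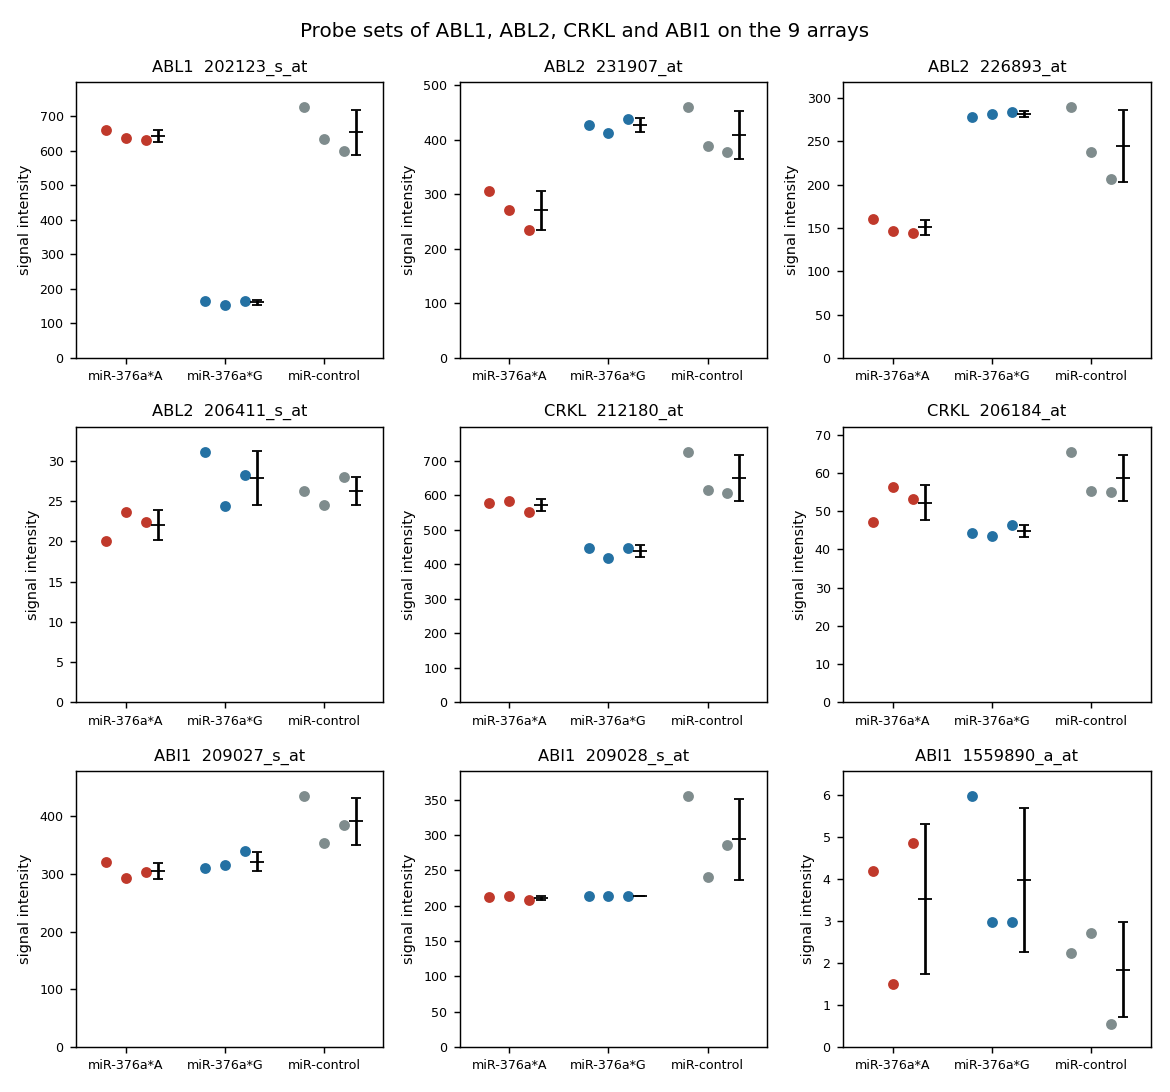
Signal intensity (linear axis from 0, scale set per panel) of the 9 probe sets on every array, with replicates 1 to 3 as points from left to right in each group and the mean ± SD (n = 3) as a black bar beside them. The miR-376a*G arrays are lowest for ABL1 (153.6 to 165.8), the miR-376a*A arrays are lowest for ABL2 on 231907_at and 226893_at, and the control arrays are highest for ABI1 on 209027_s_at and 209028_s_at.

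CRKL, the adaptor, fell with the edited form. Its bright probe set 212180_at had signals of 579.1, 583.0 and 551.8 with miR-376a*A, 447.6, 418.8 and 448.0 with miR-376a*G and 726.2, 616.9 and 607.9 in the control. The 3 groups did not overlap, with miR-376a*G lowest and the control highest. CRKL fell by 0.55 ± 0.075 (SE) with miR-376a*G against the control (1.46-fold, adjusted p = 0.000187) and was 1.29-fold higher with miR-376a*A than with miR-376a*G (0.37 ± 0.075 SE, adjusted p = 0.00411). With miR-376a*A against the control the difference was -0.18 ± 0.075 (SE, 95% interval -0.34 to -0.01), which did not pass after adjustment (adjusted p = 0.114).

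The dimmer CRKL probe set 206184_at had signals of 47.2, 56.4 and 53.2 with miR-376a*A, 44.3, 43.6 and 46.5 with miR-376a*G and 65.5, 55.3 and 55.0 in the control. Its miR-376a*G arrays again lay below the other 6. It gave -0.29 ± 0.091 (SE) for miR-376a*G against the control (adjusted p = 0.0311), or -0.38 and -0.17 with an offset of 1 and 64. That call was lost in 8 of 17 alternatives, among them quantile normalization, the fit of only these 2 groups and the fits without control replicate 1 or any one of the miR-376a*G arrays, where the adjusted p lay between 0.0501 and 0.0986.

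ABI1, the WAVE complex subunit that binds ABL kinases, fell with both forms. Its probe set 209027_s_at had signals of 320.0, 292.4 and 303.3 with miR-376a*A, 309.8, 314.7 and 339.5 with miR-376a*G and 434.5, 353.2 and 385.3 in the control. The probe set 209028_s_at had 212.3, 213.5 and 208.1 with miR-376a*A, 213.5, 213.2 and 213.4 with miR-376a*G and 355.0, 241.3 and 286.7 in the control. On both probe sets every control array lay above the 6 miR-376a* arrays, and the controls were also the more scattered, with an SD of 57.2 on 209028_s_at against 2.84 with miR-376a*A and 0.171 with miR-376a*G.

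With miR-376a*A, ABI1 fell by 0.34 ± 0.082 (SE, 1.26-fold, adjusted p = 0.0107) on 209027_s_at and by 0.43 ± 0.106 (SE, 1.35-fold, adjusted p = 0.0117) on 209028_s_at. With miR-376a*G it fell by 0.27 ± 0.082 (SE, 1.20-fold, adjusted p = 0.0292) and by 0.42 ± 0.106 (SE, 1.34-fold, adjusted p = 0.0112). Both comparisons share the control arrays, so they do not support each other. Between the forms the differences were -0.07 ± 0.082 (SE, 95% interval -0.25 to 0.11) and -0.01 ± 0.106 (SE, 95% interval -0.24 to 0.22), which did not pass (adjusted p = 0.608 and 0.951). The call on 209027_s_at was lost without miR-376a*A replicate 2 (adjusted p = 0.0528) for miR-376a*A. For miR-376a*G it was lost with each array centred on its median, in the fit of only these 2 groups, without control replicate 3 and without replicate 1 or 2 of miR-376a*G, where the adjusted p lay between 0.0516 and 0.0986. The calls on 209028_s_at held in every alternative run, although without control replicate 1 the differences shrank to -0.30 with miR-376a*A and -0.28 with miR-376a*G. The remaining ABI1 probe set, 1559890_a_at, was near the lowest signals of the arrays, at 1.49 to 4.85 with miR-376a*A, 2.97 to 5.96 with miR-376a*G and 0.555 to 2.71 in the control, and fell below the filter.

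**Figure D2:**
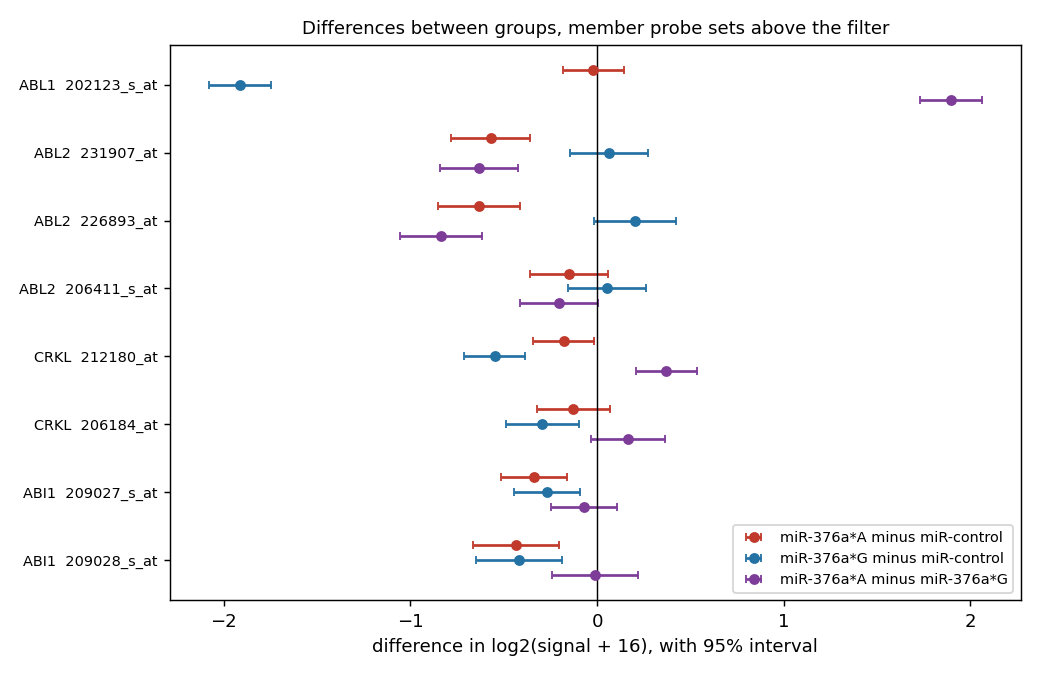
Differences in log2(signal + 16) between groups for the 8 probe sets above the filter, as points with 95% intervals from the fit of all 9 arrays. ABL1 lies at -1.92 for miR-376a*G minus control and near 0 for miR-376a*A minus control, ABL2 lies below 0 for miR-376a*A and not for miR-376a*G, and the 2 ABI1 probe sets lie below 0 for both forms.

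ABL1 left aside, 7 probe sets of ABL2, CRKL and ABI1 passed the filter. For miR-376a*A against the control, 4 of the 7 passed as lower and 0 as higher. Among all 32768 probe sets 21.3% passed, 11.1% as lower and 10.3% as higher. In the comparison of miR-376a*G with the control 4 were again lower and 0 higher, beside 25.8% of all probe sets (14.3% lower, 11.5% higher). Between the forms 1 of the 7 was higher with miR-376a*A and 2 were lower, beside 18.1% of all (10.2% higher, 7.95% lower). The median differences of the 7 were -0.34, -0.27 and -0.07 in the 3 comparisons, against 0.02, -0.02 and 0.03 over all probe sets. The arrays of the groups did not overlap on 6, 4 and 5 of the 7, beside 36.7%, 39.1% and 42% of all probe sets. These probe sets belong to only 3 genes, so they are not 7 separate observations. With each array centred on its own median, the split of all calls moved from 3360 higher and 3628 lower to 2634 and 4343 for miR-376a*A against the control. For miR-376a*G against the control it moved from 3768 and 4686 to 4112 and 4140, and between the forms from 3338 and 2604 to 2407 and 3677.

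The arrays of the control group were uneven in these genes. Control replicate 1 was the brightest control on 7 of the 8 probe sets above the filter, ABL1 included, against 43.1% of all probe sets. Around the mean of their group, all probe sets above the filter had an SD of 0.166 (log2) on control replicate 1, 0.145 on replicate 2, 0.114 on replicate 3 and 0.102 to 0.114 on the other arrays. Without control replicate 1, 8437 probe sets passed between the forms, against 5942 with it. In the same setting the calls of CRKL (206184_at), ELMO2, PDGFRB and WASL with miR-376a*G and of CYFIP1 with miR-376a*A, each against the control, were lost, with adjusted p of 0.0806, 0.0524, 0.0504, 0.0576 and 0.0546. The label of the cells was read against markers: vimentin (VIM) and CD44, which glioma lines carry, had signals of 2009 to 2611 and 1821 to 2199, and NES had 63.9 to 105.4. The astrocyte genes GFAP (0.734 to 2.43) and S100B (0.521 to 1.67) were below the filter, as was the leukocyte gene PTPRC (3.02 to 8.09). The brightest probe sets of OLIG2 and SOX2 had 15.2 to 23.5 and 14.4 to 26.1, that of the epithelial gene EPCAM 12.0 to 20.5 and that of the endothelial gene PECAM1 41.3 to 87.3.

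Other genes of the pathway were read from 4 lists of 46 genes in all, of which 40 had a probe set above the filter, and each gene was taken at its brightest one. PDGFRA and PSTPIP1 were below the filter, and the other 4 were not analysed here. With miR-376a*G, 11 of the 40 fell, 0 rose and 29 did not pass, with a median of -0.12 (-0.01 over all genes). That is 27.5% lower and 0% higher, where 15.3% and 13.3% of all 13697 genes were lower and higher. The 4 lists were fixed with earlier results of these data known, so their shares are a description and not a test. With miR-376a*A, 4 rose and 4 fell with a median of -0.01 (0.02 over all genes), or 10% each way, against 10.5% higher and 12% lower among all genes (22.6% in either direction). Between the forms 8 were higher with miR-376a*A and 1 was lower, with a median of 0.14 (0.02 over all genes), or 20% and 2.5% against 10.8% and 9.68%. These counts rest on the brightest probe set: of the genes that did not pass on it, 9 of 32 with miR-376a*A, 6 of 29 with miR-376a*G and 4 of 31 between the forms had another probe set that passed. The like share over all genes was not computed. Of all probe sets above the filter, 21.3%, 25.8% and 18.1% passed in these 3 comparisons. With miR-376a*G, 7 genes were called lower without miR-376a*G replicate 1, without its replicate 2 and in the fit of only these 2 groups. The calls over all probe sets went from 8454 to 6727, 5890 and 6853 there. With miR-376a*A, 2 genes were called higher and 3 lower without miR-376a*A replicate 2, where all calls went from 6988 to 4729. For miR-376a*G, 9 genes were called lower and 0 higher with arrays centred on their medians (8252 of all probe sets called). Without control replicate 2, 12 were called lower and 1 higher (8998 of all).

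In the CRK adaptor list, which holds partners of CRKL at adhesions, 4 of 10 genes fell with miR-376a*G and 0 rose (40% and 0%, against 15.3% and 13.3% of all genes). CBLB, a ubiquitin ligase gene, fell 1.73-fold, with a signal of 149.7 ± 10.8 with miR-376a*G against 271.7 ± 25.3 in the control (SD, n = 3 each, adjusted p = 2.02e-05), and its second probe set also passed as lower. Its relative CBL fell 1.32-fold (adjusted p = 0.00424), the scaffold gene BCAR1 (p130Cas) 1.27-fold (adjusted p = 0.0155) and ELMO2, a partner of DOCK exchange factors, 1.24-fold (adjusted p = 0.0261). With miR-376a*A 2 of the 10 fell (20%, against 12% of all genes), CBL 1.48-fold (adjusted p = 0.000526) and CBLB 1.34-fold (adjusted p = 0.00336), and the paxillin gene PXN rose 1.24-fold (adjusted p = 0.00329). Another PXN probe set gave -0.35 with miR-376a*A and -0.02 between the forms, and passed in neither. The second CBLB probe set did not pass with miR-376a*A (-0.22) or between the forms (0.18). The other 3 probe sets of CBL gave -0.29 to 0.12 with miR-376a*A and -0.37 to -0.02 with miR-376a*G, and none passed. Between the forms BCAR1 (1.35-fold), PXN (1.23-fold) and CBLB (1.30-fold) were higher with miR-376a*A. The other BCAR1 probe set did not pass with miR-376a*G (-0.17) or between the forms (0.28). The BCAR1 call with miR-376a*G was lost without miR-376a*G replicate 1 or 3 (adjusted p = 0.0528 and 0.0684), and that of ELMO2 in 5 of 18 alternatives, with adjusted p between 0.0505 and 0.108.

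Of 8 genes of the WAVE complex and RAC1, 1 fell and 0 rose with miR-376a*G, and the 12.5% that fell is below the 15.3% of all genes. This was WASF3, which encodes a WAVE protein and had 145.0 ± 8.89 with miR-376a*G against 245.2 ± 24.7 in the control (SD, n = 3 each, 1.62-fold, adjusted p = 9.12e-05). It was 1.70-fold higher with miR-376a*A than with miR-376a*G (adjusted p = 5.25e-05). With miR-376a*A the related WASF2 rose 1.18-fold (adjusted p = 0.0137) and was 1.29-fold above its level with miR-376a*G (adjusted p = 0.00114). Without miR-376a*A replicate 1 or 2 the WASF2 rise had an adjusted p of 0.0574 or 0.0538. With miR-376a*G against the control WASF2 did not pass on its brightest probe set (-0.12), but another passed as lower (-0.30). CYFIP1, another subunit, fell 1.16-fold with miR-376a*A (adjusted p = 0.0368), a call lost in 11 of 18 alternatives with adjusted p between 0.0546 and 0.135. On their brightest probe sets NCKAP1, CYFIP2, BRK1, ABI3 and RAC1 did not pass in any of the 3 comparisons. The other probe set of NCKAP1 passed as lower with both forms against the control (-0.70 with miR-376a*A and -0.62 with miR-376a*G), and that of CYFIP2 passed as higher with miR-376a*A (0.35).

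**Figure D3:**
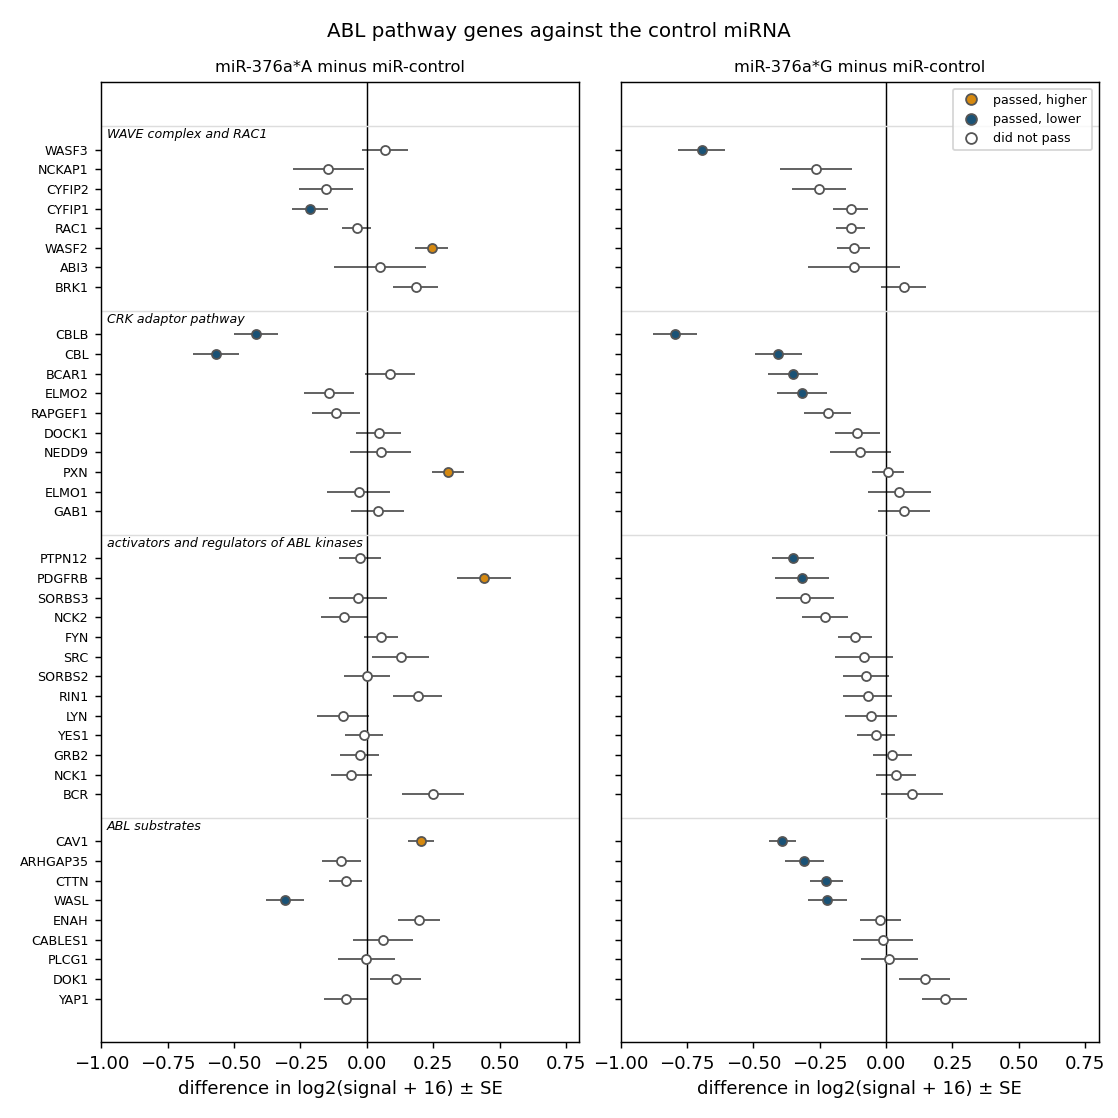
Difference in log2(signal + 16) from the control miRNA for 40 genes in 4 lists, as points ± SE (from the fit of all 9 arrays), for miR-376a*A on the left and miR-376a*G on the right. Filled points passed at an adjusted p under 0.05, and 11 genes passed as lower and 0 as higher with miR-376a*G, against 4 and 4 with miR-376a*A.

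Among 13 activators and regulators of ABL kinases, 2 fell and 0 rose with miR-376a*G, and the 15.4% that fell is near the 15.3% of all genes. PTPN12, a phosphatase that acts on adhesion proteins, fell 1.28-fold (adjusted p = 0.00584), and its other probe set passed as lower too. PDGFRB, a growth factor receptor gene that signals to ABL kinases, had 63.5 ± 1.33 with miR-376a*A, 31.1 ± 4.24 with miR-376a*G and 42.7 ± 6.21 in the control (SD, n = 3 each). It rose 1.36-fold with miR-376a*A (adjusted p = 0.00799) and was 1.69-fold higher with miR-376a*A than with miR-376a*G (adjusted p = 0.000187). The sizes depended on the offset: with 1 and 64 the difference was 0.57 and 0.26 for miR-376a*A against the control, 1.02 and 0.42 between the forms, and -0.45 and -0.17 when miR-376a*G was set against the control. Its fall with miR-376a*G (1.25-fold, adjusted p = 0.0355) was lost in 10 of 18 alternatives, with adjusted p between 0.0503 and 0.154. PTPN12 was 1.25-fold higher with miR-376a*A than with miR-376a*G (adjusted p = 0.0121), a call lost without miR-376a*A replicate 1 (adjusted p = 0.0592). On their brightest probe sets SRC, FYN, YES1, LYN and BCR were among the 11 that did not pass with miR-376a*G. Of the other 4 FYN probe sets, 2 passed as higher with miR-376a*A against the control. The other SRC probe set passed as higher with miR-376a*A than with miR-376a*G (0.52). GRB2 and NCK1 each had 1 other probe set that passed as lower with miR-376a*G. With miR-376a*A against the control, 2 other NCK1 probe sets passed as lower and 1 of SORBS2 as higher.

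Of 9 ABL substrate genes, 4 fell and 0 rose with miR-376a*G (44.4% and 0%, against 15.3% and 13.3% of all genes). The median difference of the 9 was -0.02, near the -0.01 over all genes, so the list as a whole was not shifted. CAV1, the caveolin gene, had 2519 ± 55.8 with miR-376a*A, 1663 ± 35.4 with miR-376a*G and 2185 ± 41.5 in the control (SD, n = 3 each). The 3 groups of CAV1 did not overlap. It fell 1.31-fold with miR-376a*G (adjusted p = 0.000104), was 1.51-fold higher with miR-376a*A than with miR-376a*G (adjusted p = 3.42e-06), and rose 1.15-fold with miR-376a*A (adjusted p = 0.0115, but 0.145 after quantile normalization, 0.0568 with no intensity trend and 0.0501 without miR-376a*A replicate 2). The other CAV1 probe set passed as higher with miR-376a*A than with miR-376a*G (0.37), but not against the control (0.21 with miR-376a*A and -0.17 with miR-376a*G). ARHGAP35, the gene of a GTPase-activating protein, fell 1.24-fold with miR-376a*G (adjusted p = 0.00768), and 3 of its other 4 probe sets, which ran from -0.98 to -0.04, were called lower too. With miR-376a*A against the control its brightest probe set did not pass (-0.10). There 1 of the other 4, which ran from -0.91 to 0.04, was called lower. The cortactin gene CTTN and WASL (N-WASP), both of actin assembly, fell 1.17-fold each with miR-376a*G (adjusted p = 0.0188 and 0.0387). Those calls were lost in 5 and 11 of 18 alternatives, with adjusted p of up to 0.0972 and 0.158. Of the other 3 probe sets of each, 2 of CTTN and 1 of WASL passed as lower with miR-376a*G. Those of CTTN ran from -0.47 to 0.02 and those of WASL from -1.05 to -0.02, so the size depended on the probe set. With miR-376a*A against the control the brightest CTTN probe set did not pass (-0.08). There 1 of the other 3, which ran from -0.32 to 0.14, was called lower. WASL also fell 1.24-fold with miR-376a*A (adjusted p = 0.00886). On brightest probe sets, YAP1 was the 1 gene of the 4 lists lower with miR-376a*A than with miR-376a*G (1.23-fold, adjusted p = 0.0262). That call was lost in 7 of 18 alternatives, with adjusted p of up to 0.105, but another YAP1 probe set passed as lower too. Against the control the brightest YAP1 probe set did not pass (-0.08 with miR-376a*A and 0.22 with miR-376a*G). Another passed as higher with miR-376a*G (0.27), and 1 of the others passed as lower with miR-376a*A.

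The genes whose pattern over the 9 arrays was most like that of ABL1 were found by the root mean square difference of their log2(signal + 16) values, each centred on its own mean. SLC30A6, a zinc transporter gene, was nearest at 0.0801, followed by WBP1L (0.106), KIRREL1 (0.114), the BMP receptor gene ACVR1 (0.135) and UBP1 (0.138), against a median of 0.882 over 13693 genes. Their differences from the control ran from -2.10 to -1.60 with miR-376a*G and from -0.19 to 0.23 with miR-376a*A. The nearest, SLC30A6, had signals of 278.5 ± 14.2 with miR-376a*A, 58.8 ± 4.34 with miR-376a*G and 289.7 ± 24.2 in the control (SD, n = 3 each). Other probe sets of SLC30A6 stood at 0.516 and 0.823 from ABL1 and that of KIRREL1 at 0.811, so those genes' likeness rests on 1 probe set each. WBP1L, ACVR1 and UBP1 had 0 other probe sets above the filter, so their likeness also rests on 1 probe set each. This ranking describes the arrays on which ABL1 was chosen.

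**Figure D4:**
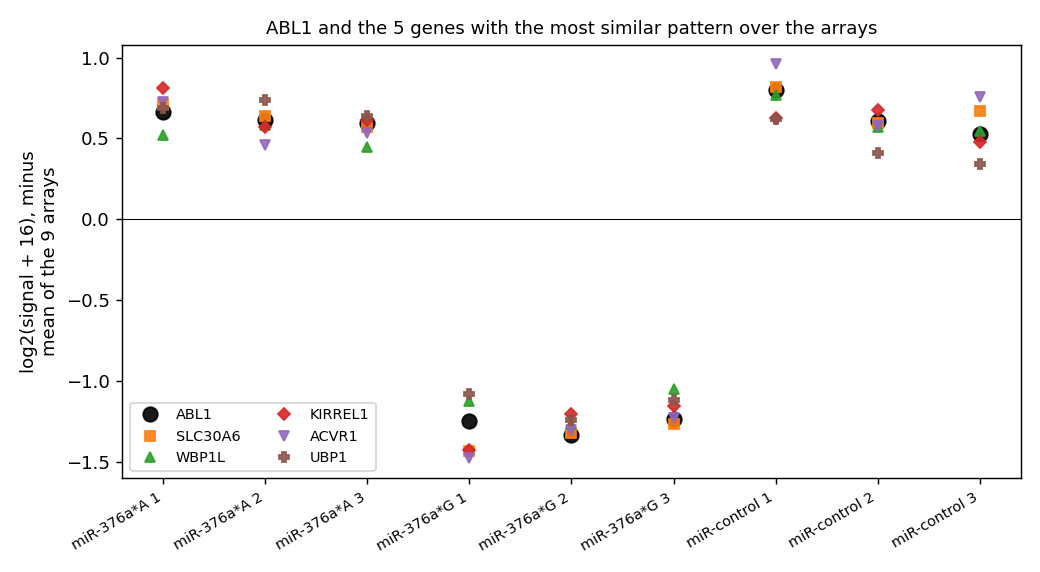
Values of log2(signal + 16) minus the mean of the 9 arrays for ABL1 (black circles) and the 5 genes nearest to it, with 1 position per array. All 6 genes lie below 0 on the 3 miR-376a*G arrays and above 0 on the other 6 arrays.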

How the data were processed

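The authors deposited 1 table of linear probe-set signal intensity values for the 9 arrays. Per the submitters' processing notes GCOS 1.4.0.036 was used; how signals were computed and to what target they were scaled is not given in the sources used here. The arrays shared a 2% trimmed mean of 100.01. The members and lists were chosen with earlier results of these data known. After 62 array controls were left out, log2(signal + 16) was taken without further scaling, and the filter kept 32768 probe sets whose mean reached the 40th percentile (signal 11.3). Symbols came from the platform annotation, with 41091 probe sets of 1 symbol. Differences were tested on all 9 arrays with limma 3.58.1 (lmFit, contrasts, eBayes with an intensity trend) in R 4.3.3, adjusted by Benjamini-Hochberg over all kept probe sets, after a check on simulated data. The fit was at probe-set level because the genes were defined as probe sets. Named genes were all probe sets of the chosen genes, up to 4 passing genes of smallest p per list and comparison, the 5 nearest in pattern to ABL1, and the markers; others are named as examples that did not pass. Alternatives covered the offset, filter, scaling, probe set rule, arrays in the fit, variance trend, replicate block and each left-out array. Array number limits the precision. Figures were drawn with matplotlib 3.10.9.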

Additional observations from a re-analysis of the deposited data

How the results depend on the processing

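With 1 probe set per gene before the fit, where fewer features are tested, calls against the control numbered 4177 under miR-376a*A, then 4993 under miR-376a*G, with 3671 between the forms, against 6988, 8454 and 5942 probe sets. Leaving out 1 array at a time gave 3819 to 8437 probe sets between the forms (3961 without miR-376a*A replicate 2 and 3819 without miR-376a*G replicate 2). Against the control it gave 5 to 9 pathway genes for miR-376a*A, beside 4729 to 7700 of all probe sets. For miR-376a*G against the control it gave 7 to 13 pathway genes, beside 5890 to 8998 of all probe sets. The fit of only the 2 groups gave 7 pathway genes for miR-376a*G, beside 6853 of all probe sets. For ABL1 the offset set the size, by its construction: the difference of miR-376a*G from the control was -2.01 with an offset of 1 and -1.67 with 64, and that between the forms 1.99 and 1.65. With arrays centred on their medians the difference between the forms was 1.84. No pairing by replicate number was seen: deviations of same-numbered arrays correlated between -0.10 and 0.06, and those of different-numbered arrays between -0.13 and 0.13. Of 9 arrays, 2 were most like an array of the same number. With so few arrays a weak pairing could be missed. With the replicate block 6430, 7952 and 5397 probe sets passed. The calls of ABL2 on 231907_at, of CRKL on 212180_at and of ABI1 on 209028_s_at kept their direction and side of the threshold in all 3 comparisons under every alternative that tested them. Signals near background limit 206411_s_at and 1559890_a_at. The causes of the other shifts were not tested.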
